A study of Mus musculus with 16 samples.

Results

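Messenger RNA was compared between untreated macrophages of wild-type mice and of mice with Sirt3 K223R, which puts arginine in place of a lysine of the protein Sirt3. The comparison rests on 8 of the 16 libraries of the series, 4 wild-type and 4 Sirt3 K223R, and on every gene with a value of at least 1 in at least 4 of these 8 libraries, which held for 9676 of 10920 genes listed. Per the labels, all mice were C57BL/6 and 8 weeks old, and their bone marrow cells spent 7 days in culture with the macrophage growth factor M-CSF (20 ng/ml). The other 8 libraries, 4 of each genotype, came from macrophages that then received the cytokine IL-4, a driver of alternative activation (20 ng/ml, 24 hours); they are used here only for values set beside the untreated ones. The labels do not say whether the libraries of a group came from separate mice, how the allele was made or whether the mice carried 1 copy or more, so each p-value speaks of the spread among these libraries, part of which may be technical.

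Sirt3 is a deacetylase of the mitochondrial matrix that uses NAD+ and removes acetyl groups from enzymes of fatty acid oxidation, the tricarboxylic acid cycle, the respiratory chain and the defence against superoxide. In the mouse protein, the lysine that K223R replaces has been described as the residue to which the small protein SUMO is attached, a modification that lowers the activity of the enzyme and that the protease Senp1 removes; arginine cannot carry it. Macrophages without a stimulus are a baseline state, in which the cells clear debris and keep inflammatory genes low.

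The stretch around the changed lysine is printed to show what the allele alters. In the GENCODE transcript Sirt3-205, whose annotated coding part holds 258 codons and has an incomplete end, the codon with the number named in K223R, counted from the first codon, is a lysine codon in exon 5 of 5, at chr7:140869594-140869596 on the minus strand of GRCm38. The line below gives the reference coding sequence of that transcript, 5′ to 3′, with the lysine codon in capitals and 30 bases on each side.
Sirt3-205: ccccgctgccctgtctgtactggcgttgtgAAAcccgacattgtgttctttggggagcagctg
The same position is codon 146 in the transcripts Sirt3-201, Sirt3-202 and Sirt3-210, which begin further downstream. The base change of the mutant allele is not given in the sources used here, and the deposited values hold no reads, so the genotype labels could not be checked at this codon.

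Sirt3 itself (ENSMUSG00000025486.17, GRCm38 chr7:140863666-140882309, minus strand) was measured at a low level that did not differ beyond the spread between libraries. In FPKM, a fragment count divided by transcript length and library size and a unit inferred here from the values, its levels in replicates 1 to 4 were 1.24, 1.62, 1.57 and 1.47 in wild-type and 1.47, 1.6, 1.73 and 1.43 in Sirt3 K223R libraries; values per library follow this order of replicates throughout. The means were 1.48 ± 0.168 and 1.56 ± 0.135 (SD, n = 4 each; 2-sided exact permutation test, p = 0.543). The limma estimate was 0.05 on the log2(FPKM + 1) scale, with a 95% interval of -0.11 to 0.20. Because K223R changes the protein, the level of the transcript does not check the labels. As markers of the cell type, Csf1r, the receptor for M-CSF, stood at 452 to 558 FPKM in wild-type and 501 to 549 in Sirt3 K223R libraries, and Adgre1, the gene of the macrophage antigen F4/80, at 386 to 460 and 377 to 411.

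The 8 libraries were alike in general measures. The summed FPKM ranged from 288143 to 305883, the median gene stood at 5.92 to 6.18 FPKM, and 81 to 97 genes were listed at 0. The sequencing depth is unknown, since the files hold no counts. Over the genes tested, Pearson's r of log2(FPKM + 1) was 0.985 to 0.99 between libraries of a genotype (median 0.988) and 0.982 to 0.99 between genotypes (median 0.987). On the first principal component, which held 22.6% of the variance, wild-type replicates 1 and 2 stood apart at 17.2 and 7.89, wild-type replicates 3 and 4 lay at -1.0 and -0.84, and the Sirt3 K223R libraries lay between -10.7 and -1.69. A column with the type of each gene is present in the files of all Sirt3 K223R libraries and in none of the wild-type files, and any such difference in processing cannot be told apart from the genotype.

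Of the 9676 genes tested, 1 was called different between the genotypes at an adjusted p under 0.05 (limma with Benjamini-Hochberg adjustment), which is 0.0103% of the genes. That gene, Ctdsp2, was higher in Sirt3 K223R macrophages, and 0 genes were called lower. At an unadjusted p under 0.05, 415 genes were higher (4.29%) and 462 lower (4.77%), 9.06% in all. The 4 Sirt3 K223R values lay wholly above the 4 wild-type values in 230 genes (2.38%) and wholly below them in 260 (2.69%). The means were higher in Sirt3 K223R cells for 49.6% of genes and lower for 50.4%.

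The intervals limit how large a difference these libraries leave room for. The median absolute difference was 0.06 on the log2 scale and the 95th percentile 0.29, against a median standard error of 0.07. The 95% interval lay within a 2-fold difference of FPKM + 1 in either direction for 9460 genes (97.8%), within 1.5-fold for 92.3% and within 1.25-fold for 73.6%. For genes of low FPKM these limits leave room for larger folds of FPKM itself. Only 16 genes differed by 1 or more on the log2 scale, and 15 of them had a log2 SD above 0.5 within a genotype. Genes that varied this much among libraries of a genotype numbered 231 in wild-type cells (2.39%) and 204 in Sirt3 K223R cells (2.11%), with 91 in both, 39.4% of the former and 44.6% of the latter. The median log2 SD of a gene was 0.0983 among wild-type and 0.0867 among Sirt3 K223R libraries.

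**Figure D1:**
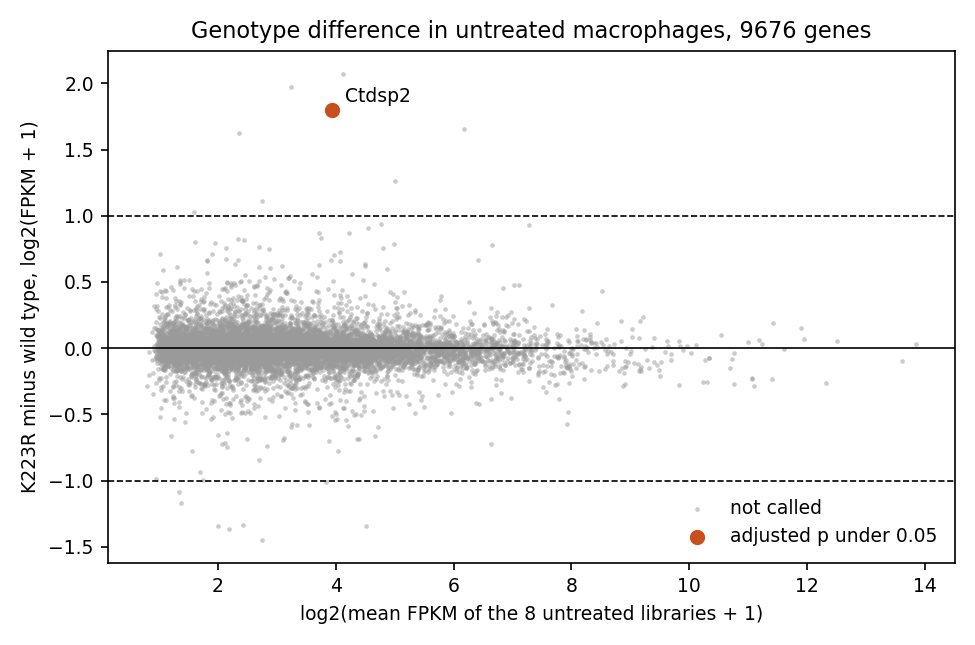
Genotype difference of each of 9676 genes (vertical axis, log2 scale) against its mean level in the 8 untreated libraries (horizontal axis, log2(FPKM + 1)), with the called gene in colour. Ctdsp2, at a difference of 1.80, is the 1 called gene; most others lie within 0.29 of 0.

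Ctdsp2 encodes a phosphatase of the C-terminal domain of RNA polymerase II, one of a small family known for holding down neuronal genes outside neurons. The gene (ENSMUSG00000078429.9) lies at chr10:126978717-126999975 on the plus strand of GRCm38. It stood at 5.6, 4.07, 6.71 and 7.37 FPKM in the wild-type libraries and at 23.2, 21.9, 23.7 and 22.1 in the Sirt3 K223R libraries. The groups did not overlap: every Sirt3 K223R library was more than 10 FPKM above every wild-type one, and the Sirt3 K223R values were closer to each other. The means were 5.94 ± 1.44 and 22.7 ± 0.879 FPKM (SD, n = 4 each), a difference of 1.80 on the log2 scale (SE 0.14, 95% interval 1.48 to 2.11, adjusted p = 0.00503). Leaving out any 1 of the 8 libraries kept the call, with differences of 1.66 to 1.90. The call was lost with the replicate number as a block (adjusted p = 0.0612) and in the fit on all 16 libraries (adjusted p = 0.296).

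With IL-4, Ctdsp2 did not separate the genotypes. The wild-type libraries stood at 6.2, 18, 20.6 and 19.8 FPKM and the Sirt3 K223R libraries at 6.63, 8.16, 25.4 and 25.5. Each genotype thus held libraries near the low untreated level and libraries near the high one, with 1 of 4 wild-type and 2 of 4 Sirt3 K223R libraries low. The genotype difference there was -0.08 (adjusted p = 0.914), and the interaction of genotype and IL-4 was -1.88 (adjusted p = 0.114), which did not pass the threshold. Over all 16 libraries the gene took a low level of 4.07 to 8.16 FPKM in 7 libraries and a high level of 18 to 25.5 in 9, with no value between.

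Other genes showed a like split into 2 levels that did not follow genotype. A split was counted where, among the gaps between neighbouring sorted values that leave at least 3 of the 16 libraries on each side, the largest was at least 1 on the log2 scale; the count was set up after the Ctdsp2 values had been seen. It held for 98 genes, of which 60 split by IL-4 alone and 36 had both levels within a group. Of these 36, 32 had both levels among the untreated libraries. Ctdsp2 was the 1 gene high in all Sirt3 K223R and low in all wild-type untreated libraries, and 0 genes showed the reverse. Counting Ctdsp2, 12 genes were high in more Sirt3 K223R than wild-type libraries, 16 in fewer and 4 in equal numbers.

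For 3 more of these 32 genes all libraries but 1 followed genotype in untreated cells, 1 in the direction of Ctdsp2 and 2 in the other. Cdc42se1, a small effector protein of the GTPase Cdc42, stood at 14.1, 13.8, 33.4 and 13.3 FPKM in wild-type and 32.6, 34.1, 34.2 and 34.8 in Sirt3 K223R libraries, so that wild-type replicate 3 alone sat at the level of the mutants. Its difference of 0.94 was not called (adjusted p = 0.447); without wild-type replicate 3 it was 1.24 and called (adjusted p = 4.04e-05). With IL-4 its values were 15.1, 37.4, 13.6 and 13.1 FPKM in wild-type and 40.4, 39.7, 14.2 and 14.7 in mutant libraries, again at 2 levels in both genotypes. Ino80d, a subunit of a chromatin remodelling complex, stood at 2.74, 2.2, 2.29 and 2.39 FPKM in wild-type and 0.112, 0.126, 2.75 and 0.113 in mutant libraries (difference -1.17, adjusted p = 0.451), and was called at -1.61 without Sirt3 K223R replicate 3 (adjusted p = 0.000299). Ino80d passed the filter on low values mainly through the wild-type libraries, where it was high. Zfp180, a zinc finger protein, stood at 5.21, 5, 4.98 and 5.8 FPKM in wild-type and 5.25, 0.632, 1 and 0.683 in mutant libraries (difference -1.36, adjusted p = 0.448), and was called at -1.82 without Sirt3 K223R replicate 1 (adjusted p = 0.000574). In both Ino80d and Zfp180 1 mutant library sat at the wild-type level. For all 3 genes the library left out was the 1 that went against the split by genotype. Their calls without it were thus set by how the genes were chosen and are given as a description only.

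Several well-known macrophage genes were among those with 2 levels. Gpx1, the main cytosolic glutathione peroxidase, stood at 64.8, 289, 49.4 and 55.4 FPKM in wild-type and 279, 246, 48.1 and 207 in Sirt3 K223R libraries, a difference of 0.93 (SE 0.69, adjusted p = 0.728). In Gpx1, 1 wild-type and 3 Sirt3 K223R libraries were high. C5ar1, the receptor for the complement fragment C5a, stood at 28.4, 24.2, 29.9 and 189.9 FPKM in wild-type and 23.3, 27.4, 256 and 214 in mutant libraries (difference 0.78, adjusted p = 0.846). Tlr4, the receptor for bacterial lipopolysaccharide, stood at 1.63, 15.5, 14.6 and 1.65 FPKM in wild-type and 16.1, 1.04, 3.48 and 15.2 in mutant libraries (difference 0.12, adjusted p = 0.981). The genotypes overlapped in all 3 genes, and which libraries were high differed from gene to gene.

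Part of these genes shared their place in the genome with another gene. Of the 36 genes with both levels within a group, 11 (30.6%) overlapped the span of another listed gene and 8 (22.2%) did so on the same strand, against 18.4% and 3.39% of all genes tested. Gm45717, which overlaps Ifitm2 and Ifitm5 on the same strand, stood at 1.26, 0, 0.657 and 197 FPKM in wild-type and 194, 0.616, 174 and 0.318 in Sirt3 K223R libraries. Ifitm2, a membrane protein that restricts virus entry, stood at 322, 388, 288 and 160.4 FPKM in wild-type and 146, 245, 131 and 249 in mutant libraries, lowest in the 3 libraries where Gm45717 was high. Reads of overlapping genes can be assigned to one or the other, and the values of both are uncertain here. Ctdsp2, Gpx1, C5ar1 and Tlr4 overlapped no listed gene; only protein-coding genes are listed. Whether read assignment has a part in their levels was not tested.

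**Figure D2:**
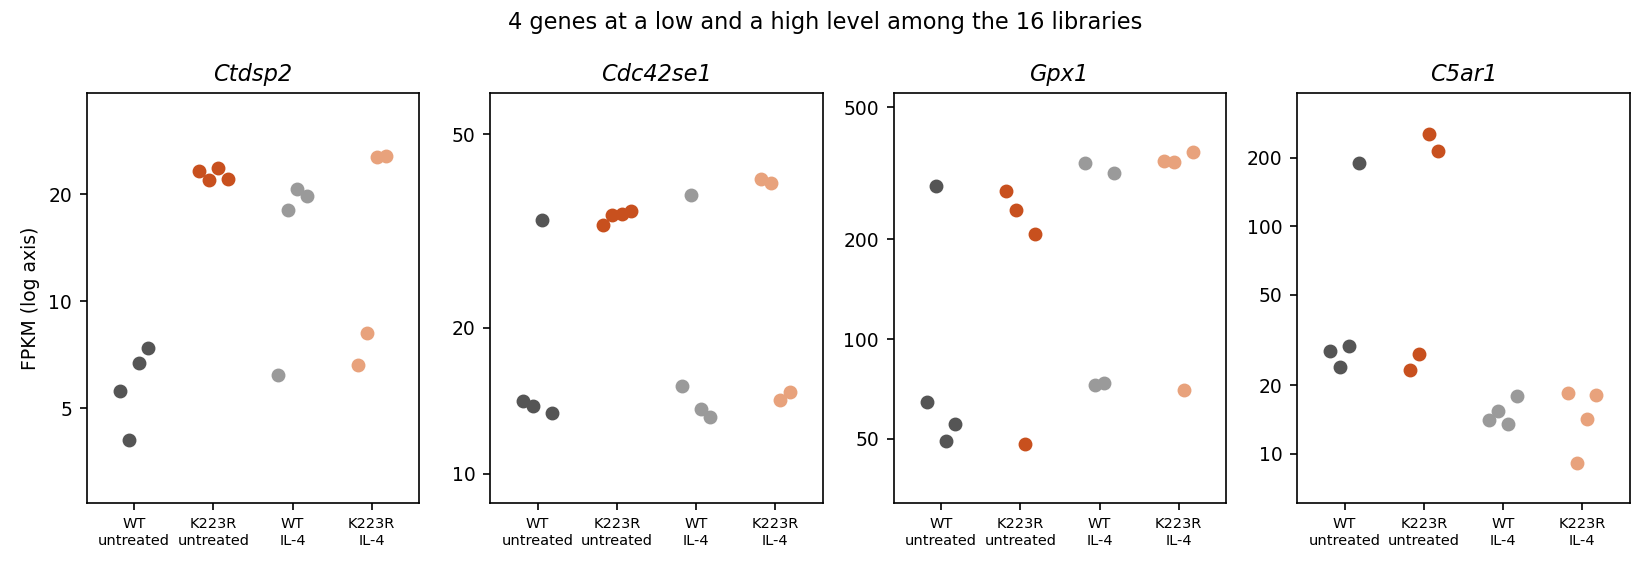
FPKM (log axis) of Ctdsp2, Cdc42se1, Gpx1 and C5ar1 in each of the 16 libraries, one dot per library, by genotype and treatment. Untreated Ctdsp2 lies at 4.07 to 7.37 in wild-type and 21.9 to 23.7 in Sirt3 K223R libraries, whereas the other genes have both levels in at least 1 untreated group.

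No gene ranked after Ctdsp2 passed the threshold. Those given here as values are a selection made after their values were seen, not a run of consecutive ranks. Tspan17, a tetraspanin of the cell membrane, stood at 19.2, 18.1, 20.1 and 16.6 FPKM in wild-type and 24.9, 24.1, 24.6 and 24.4 in Sirt3 K223R libraries, without overlap (difference 0.39, adjusted p = 0.184). With IL-4 its difference was 0.31 (adjusted p = 0.0183), a call. Jade1, a scaffold of a histone acetyltransferase complex, stood at 3.13, 2.45, 2.64 and 2.69 FPKM in wild-type and 0.805, 1.25, 1.06 and 1.64 in mutant libraries, also without overlap (difference -0.78, adjusted p = 0.184; called at -0.87 without Sirt3 K223R replicate 4, adjusted p = 0.043). Ly6e, an interferon-inducible surface protein, stood at 11.2, 15.4, 18.6 and 15.6 FPKM in wild-type and 27.7, 21.5, 40.5 and 29.5 in mutant libraries (difference 0.91, adjusted p = 0.362). The 4 mutant values of Ly6e all exceeded the 4 wild-type ones, at a wider spread than in Tspan17. Adam19, a membrane-bound metalloprotease, stood at 2.06, 1.89, 2.08 and 1.93 FPKM in wild-type and 2.62, 3.14, 3.34 and 3.8 in mutant libraries (difference 0.49, adjusted p = 0.262), and with IL-4 its difference was 0.99 (adjusted p = 2.91e-05). C3, the central complement protein, stood at 9.06, 10.2, 6.78 and 13 FPKM in wild-type and 5.33, 5.74, 5.2 and 6.02 in mutant libraries (difference -0.68, adjusted p = 0.362). Herpud1, a protein of the degradation of misfolded proteins at the endoplasmic reticulum, stood at 9.16, 8.41, 7.8 and 8.21 FPKM in wild-type and 6.37, 7.36, 5.74 and 5.83 in mutant libraries (difference -0.36, adjusted p = 0.362). Both were lower in every Sirt3 K223R library than in any wild-type one. With IL-4 the differences were 0.12 for Jade1 (adjusted p = 0.765), -0.43 for Ly6e (adjusted p = 0.569), 0.03 for C3 (adjusted p = 0.955) and 0.46 for Herpud1 (adjusted p = 0.0310), each opposite in sign to the untreated one.

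Genes of pathways were followed through 58 lists, of which 56 had a tested member; 0 of their 899 tested genes were called, and the smallest adjusted p among them was 0.184. The lists are therefore described by how many members had a higher or lower mean and by their median difference, beside a median of -0.00095 over all genes tested.

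The 13 messenger RNAs encoded in mitochondrial DNA, which give core subunits of the respiratory chain and ATP synthase, all had lower means in Sirt3 K223R cells, with differences from -0.49 to -0.21 and a median of -0.26. None was called (smallest adjusted p = 0.378), 12 had an unadjusted p under 0.05 against 4.77% of all genes in that direction, and in 5 the libraries did not overlap, against 2.69% of all genes wholly lower. Together they held 8.23%, 8.00%, 6.99% and 7.89% of the summed FPKM in the wild-type libraries and 6.90%, 6.85%, 6.48% and 6.25% in the Sirt3 K223R libraries. The lowest wild-type library, replicate 3, was just above the highest Sirt3 K223R one. The means were 7.78% ± 0.544 and 6.62% ± 0.309 (SD, n = 4 each; 2-sided exact permutation test, p = 0.0286, the smallest that 4 against 4 libraries can give; 0.0857 after adjustment over 3 such tests). The share of the 10 highest genes was 19.3% ± 0.533 and 19.4% ± 0.849 (SD, n = 4 each; exact permutation test, p = 0.886). Without wild-type replicate 1 the median of the 13 genes was -0.23.

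Single genes of this group were measured at high levels. mt-Co1, the catalytic core of cytochrome oxidase, stood at 5786, 5879, 5125 and 5593 FPKM in wild-type and 4878, 4875, 4391 and 4540 in Sirt3 K223R libraries, a difference of -0.26 (SE 0.06, adjusted p = 0.378). mt-Nd1, a membrane subunit of complex I, stood at 2375, 2395, 2154 and 2377 FPKM in wild-type and 2097, 2055, 1922 and 1847 in mutant libraries (difference -0.23, adjusted p = 0.429). After quantile normalization the differences were -0.17 for mt-Co1 and -0.10 for mt-Nd1. The 3 wild-type values of mt-Nd1 other than replicate 3 lay close together, and replicate 3 lay near the mutant values. mt-Nd6, the 1 messenger RNA read from the other strand of the mitochondrial genome, stood at 336, 346, 187 and 281 FPKM in wild-type and 220.3, 209.5, 195 and 176 in mutant libraries and had the widest interval, -0.90 to -0.07 around -0.49. Which libraries were enriched by poly(A) selection and which by removal of ribosomal RNA is not stated, and its part in these levels was not tested.

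With IL-4 the genotypes differed in the same direction. The share was 7.78% ± 0.455 in wild-type and 5.06% ± 1.24 in Sirt3 K223R libraries (SD, n = 4 each), with Sirt3 K223R replicate 2 at 3.23%. The median difference of the 13 genes was -0.73, and 10 were called lower; the interaction was called for 0 of the 13 (limma). For mt-Nd1 the difference with IL-4 was -0.82 (adjusted p = 0.00242); its interaction with IL-4 had an adjusted p of 0.177.

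**Figure D3:**
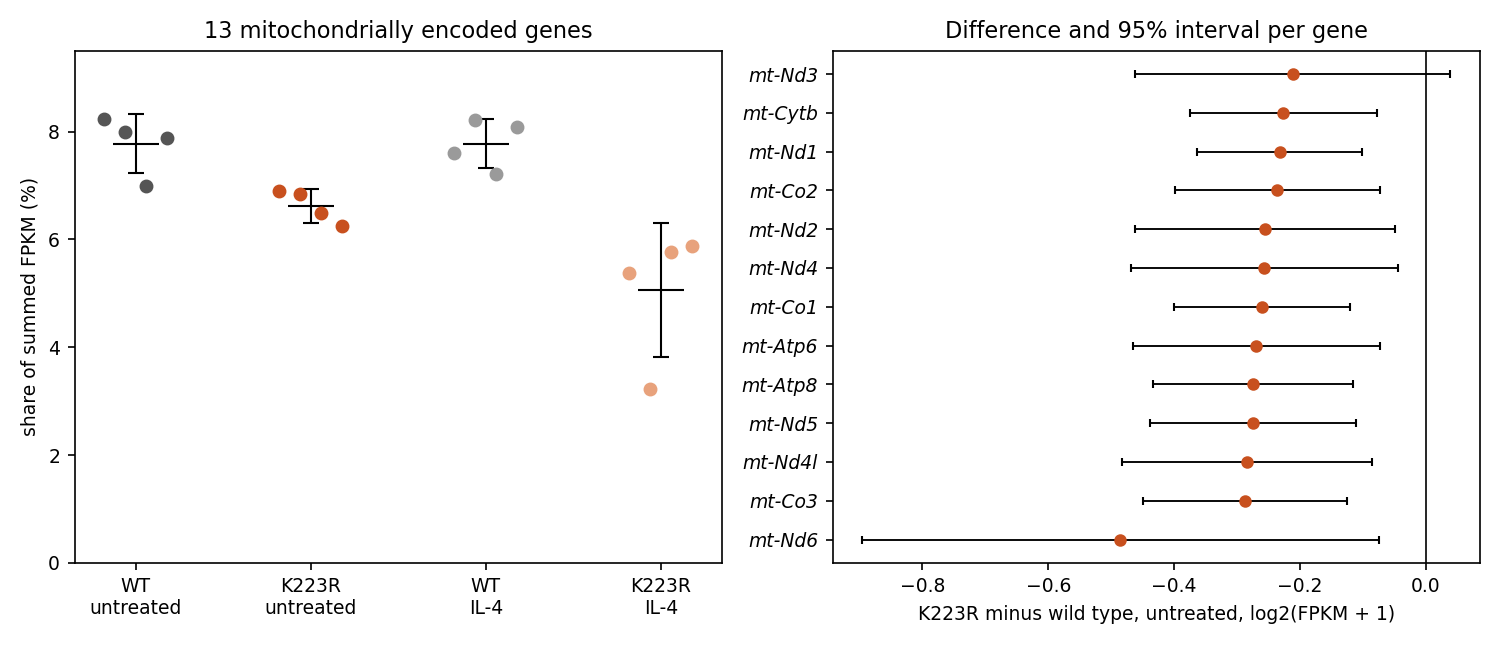
Left, share of summed FPKM (%) held by the 13 mitochondrially encoded genes in each library, with mean and SD of the 4 libraries of a group. Right, untreated difference of each gene with its 95% interval on the log2 scale; all 13 points lie below 0, between -0.49 and -0.21, before adjustment for the genes tested.

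Nuclear genes of the respiratory chain had mostly lower means, by small amounts. Of 37 tested subunits of complex I, 33 were lower and 4 higher, with a median of -0.08; 4 had an unadjusted p under 0.05, all lower, against 4.77% of all genes lower. Of 40 genes of complexes II to V, 38 were lower, with a median of -0.07, and 6, all lower, had an unadjusted p under 0.05. Of 60 mitochondrial ribosomal proteins, 44 were lower, with a median of -0.05. Without wild-type replicate 2 the medians of the complex I and the complex II to V genes were -0.05 and -0.04. Atp5c1, the central shaft subunit of ATP synthase, stood at 98.8, 107, 91.4 and 93.1 FPKM in wild-type and 71.6, 70.8, 68.4 and 80.2 in Sirt3 K223R libraries (difference -0.42, SE 0.07, adjusted p = 0.184). Every mutant value lay below every wild-type value, and the difference with IL-4 was -0.40 and called (adjusted p = 0.0146), with an interaction of 0.02 (adjusted p = 0.972). Mrpl30, a protein of the large mitochondrial ribosomal subunit, stood at 14.2, 16.7, 11.3 and 14.7 FPKM in wild-type and 10.4, 10.1, 9.91 and 9.76 in mutant libraries (difference -0.45, adjusted p = 0.362); without wild-type replicate 3 it was -0.55 and called (adjusted p = 0.0362). Cox8a, a small subunit of cytochrome oxidase among the highest genes of its list, differed by -0.12 (adjusted p = 0.608), and Ndufa6 of complex I by -0.16 (adjusted p = 0.548).

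Other metabolic pathways that Sirt3 acts on had medians near that of all genes. The 23 tricarboxylic acid cycle genes, with the enzymes that feed it and 2 cytosolic relatives, split into 12 higher and 11 lower, with a median of 0.0016. Mdh1, the cytosolic malate dehydrogenase, stood at 71.9, 75.1, 76.8 and 72 FPKM in wild-type and 61.5, 63.7, 63.2 and 62.6 in Sirt3 K223R libraries (difference -0.23, adjusted p = 0.184). Its groups did not overlap, and with IL-4 its difference was -0.03 (adjusted p = 0.773). Of 22 fatty acid oxidation genes 14 were lower (median -0.03), and of 19 tested genes of reported Sirt3 substrates 13 were lower (median -0.03). Sod2, the mitochondrial superoxide dismutase and a substrate of Sirt3, stood at 25.8, 26.8, 23.1 and 26.5 FPKM in wild-type and 23.9, 22.5, 22.9 and 21.7 in mutant libraries (difference -0.16, adjusted p = 0.456). The 6 tested sirtuin genes split evenly, 3 higher and 3 lower. Of 15 genes of the SUMO pathway 9 were higher and 6 lower (median 0.01), and Sumo2, which encodes a SUMO protein, differed by -0.11 (adjusted p = 0.584).

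Genes of cytosolic ribosomal proteins had lower means in 72 of 76 cases, with a median of -0.14; 31 had an unadjusted p under 0.05, all lower, against 4.77% of all genes, and in 9 the libraries lay wholly lower, against 2.69%. They held 6.40%, 6.78%, 5.89% and 6.16% of the summed FPKM in wild-type and 6.06%, 5.92%, 5.64% and 5.86% in Sirt3 K223R libraries, so the groups overlapped. Rps7, of the small subunit, stood at 192, 202, 168 and 178 FPKM in wild-type and 166, 162, 152 and 161 in mutant libraries (difference -0.20, adjusted p = 0.451), and Rpl14, of the large subunit, at 187, 197, 173 and 172 FPKM in wild-type and 166, 163, 150.3 and 161 in mutant libraries (difference -0.18, adjusted p = 0.451). The libraries did not overlap for these 2 genes. The median of the list kept its sign in every alternative and leave-one-out fit run, between -0.18 and -0.10. With IL-4 it was -0.20, and 27 members were called lower. Ribosomal protein genes have many processed copies in the genome, so their read assignment is uncertain.

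Genes that mark macrophages and alternative activation had medians near 0. Of the 20 macrophage identity genes, 4 lower and 1 higher had an unadjusted p under 0.05, against 4.77% and 4.29% of all genes. The median of the 20 was 0.01, which was -0.06 without wild-type replicate 1. Lyz2, which encodes lysozyme and is among the highest of them, differed by -0.10 (adjusted p = 0.740), and Ctsd, the lysosomal protease cathepsin D, by 0.05 (adjusted p = 0.844). Cd14, the co-receptor for lipopolysaccharide, stood at 218, 243, 194 and 189 FPKM in wild-type and 192, 158, 167 and 154 in Sirt3 K223R libraries (difference -0.33, adjusted p = 0.451), with 1 mutant value inside the wild-type range. Of 30 alternative activation genes 15 were tested, 10 higher and 5 lower (median 0.03, and -0.02 without wild-type replicate 1). Ear2, an eosinophil-associated ribonuclease that IL-4 raises in macrophages, stood at 10.2, 10.7, 15.8 and 11.8 FPKM in wild-type and 17.7, 18.5, 23.8 and 18.2 in mutant libraries without overlap (difference 0.66, adjusted p = 0.362). Chil3, the chitinase-like protein Ym1, stood at 9.64, 8.98, 18.9 and 17.6 FPKM in wild-type and 19.97, 13.6, 27.2 and 14.5 in mutant libraries, with overlap (difference 0.44, adjusted p = 0.679). With IL-4 the difference of Ear2 was 2.23 (adjusted p = 5.63e-05), and its interaction was called at 1.57 (adjusted p = 0.0296).

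Inflammatory mediators had mostly lower means. Of 12 inflammatory cytokine genes 9 were lower (median -0.16), and of 14 chemokine genes 10 (median -0.31). The medians of both lists kept their sign in every alternative and leave-one-out fit run, from -0.23 to -0.09 for cytokines and -0.40 to -0.23 for chemokines. Tnf, which encodes tumour necrosis factor, stood at 11.5, 10.1, 7.25 and 8.82 FPKM in wild-type and 6.88, 7.21, 7.22 and 8.26 in Sirt3 K223R libraries (difference -0.30, adjusted p = 0.523). Il1b, the cytokine interleukin-1 beta, stood at 3.68, 3.4, 2.49 and 7.22 FPKM in wild-type and 2.29, 3.41, 2.24 and 2.14 in mutant libraries (difference -0.50, adjusted p = 0.576). Both genes overlapped between genotypes. Nlrp3, the sensor of the inflammasome that activates interleukin-1 beta, stood at 4.67, 6.05, 5.84 and 5.06 FPKM in wild-type and 3.34, 3.34, 4.75 and 4.04 in mutant libraries, with overlap (difference -0.40, adjusted p = 0.447).

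Single chemokines lay in both directions. Ccl3 and Ccl4, which draw in monocytes and T cells, stood at 55.6, 70.02, 46.4 and 63 and at 45.4, 59.1, 36.2 and 45.3 FPKM in wild-type libraries. In Sirt3 K223R libraries they stood at 46.1, 43.1, 42.6 and 50.2 and at 31.5, 33.8, 28.6 and 35.6. The differences were -0.35 (adjusted p = 0.456) and -0.49 (adjusted p = 0.447); the libraries overlapped for Ccl3 and did not for Ccl4. Cxcl14, a chemokine of resting tissues, stood at 13.3, 17, 29.2 and 21.9 FPKM in wild-type and 33.9, 31.4, 33.5 and 35.9 in Sirt3 K223R libraries, without overlap (difference 0.75, adjusted p = 0.447).

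Interferon-stimulated genes had higher means in 31 of 33 cases, with a median of 0.18; 10 had an unadjusted p under 0.05, all higher, against 4.29% of all genes. Without wild-type replicate 1, which stood apart on the first principal component, the median was 0.10. With IL-4 the list median was 0.0016, with 1 member called higher and 3 lower, against 4.66% and 10.1% of all genes. Oas3, a sensor of double-stranded RNA, stood at 6.32, 7.14, 7.54 and 8.23 FPKM in wild-type and 9.66, 10.2, 10.01 and 8.74 in Sirt3 K223R libraries (difference 0.36, adjusted p = 0.362). Rsad2, the antiviral enzyme viperin, stood at 2.95, 3.98, 4.03 and 4.85 FPKM in wild-type and 5.06, 5.12, 5.27 and 5.02 in mutant libraries (difference 0.32, adjusted p = 0.456). Neither overlapped between genotypes, which held for 6 of the 33 members, all higher, against 2.38% of all genes wholly higher. Both lay lowest in wild-type replicate 1. All 8 tested interferon-inducible GTPases, which attack the vacuoles of intracellular parasites, had higher means (median 0.16), among them Gbp3 at a difference of 0.33 (adjusted p = 0.412). With IL-4 the differences were -0.37 for Oas3 (adjusted p = 0.0401) and 0.99 for Gbp3 (adjusted p = 0.000872). The interaction of Oas3 was called at -0.73 (adjusted p = 0.0313).

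All 6 tested genes of MHC class II, which presents peptides to helper T cells, had higher means, with a median of 0.41. Without wild-type replicate 1 the median was 0.24. H2-Aa, the alpha chain of I-A, stood at 10.6, 18.5, 20.8 and 16.2 FPKM in wild-type and 29.96, 16.2, 34.1 and 25.2 in Sirt3 K223R libraries (difference 0.64, SE 0.25, adjusted p = 0.512). The groups overlapped, and wild-type replicate 1 was the lowest of the 8. H2-Ab1, its beta chain, differed by 0.62 (adjusted p = 0.526). With IL-4 the difference of H2-Aa was 1.56 and called (adjusted p = 0.00669). The 18 genes of MHC class I, which presents peptides to cytotoxic T cells, and of the immunoproteasome, which cuts them, had a median of 0.01.

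Receptors for debris and dead cells and genes induced by TGF-beta also had mostly higher means. Of 12 scavenger and clearance receptors 11 were higher, with a median of 0.18 (0.09 without wild-type replicate 2). All 11 tested Id and TGF-beta target genes were higher, with a median of 0.21 (0.11 without wild-type replicate 1). With IL-4 the median was 0.03 for the receptors and -0.50 for the Id and TGF-beta target genes. In that comparison 1 receptor and 5 of the target genes were called lower and 0 higher, against 10.1% of all genes lower. Cd36, a receptor for oxidised lipids, stood at 485, 542, 603 and 555 FPKM in wild-type and 623, 688, 657 and 598 in Sirt3 K223R libraries (difference 0.23, adjusted p = 0.451). Itgb5, an integrin chain that binds dying cells, stood at 151, 161, 219 and 197 FPKM in wild-type and 225, 221, 226 and 229 in mutant libraries, without overlap (difference 0.32, adjusted p = 0.456). In both genes wild-type replicate 1 was the lowest library. Axl, a receptor tyrosine kinase for dying cells, stood at 15.8, 14.2, 18 and 17.9 FPKM in wild-type and 17.2, 19.2, 23 and 20.4 in mutant libraries (difference 0.26, adjusted p = 0.512). Tgfbi, an extracellular protein that TGF-beta induces, stood at 4.16, 4.83, 9.46 and 8.2 FPKM in wild-type and 9.41, 7.54, 10.8 and 11 in mutant libraries (difference 0.53, adjusted p = 0.543), and Id3, an inhibitor of DNA-binding factors, at 52.5, 64.5, 91.7 and 88.1 FPKM in wild-type and 91.2, 83.8, 87.5 and 85.7 in mutant libraries (difference 0.26, adjusted p = 0.658). Wild-type replicates 1 and 2 were the lowest 2 libraries for both genes.

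**Figure D4:**
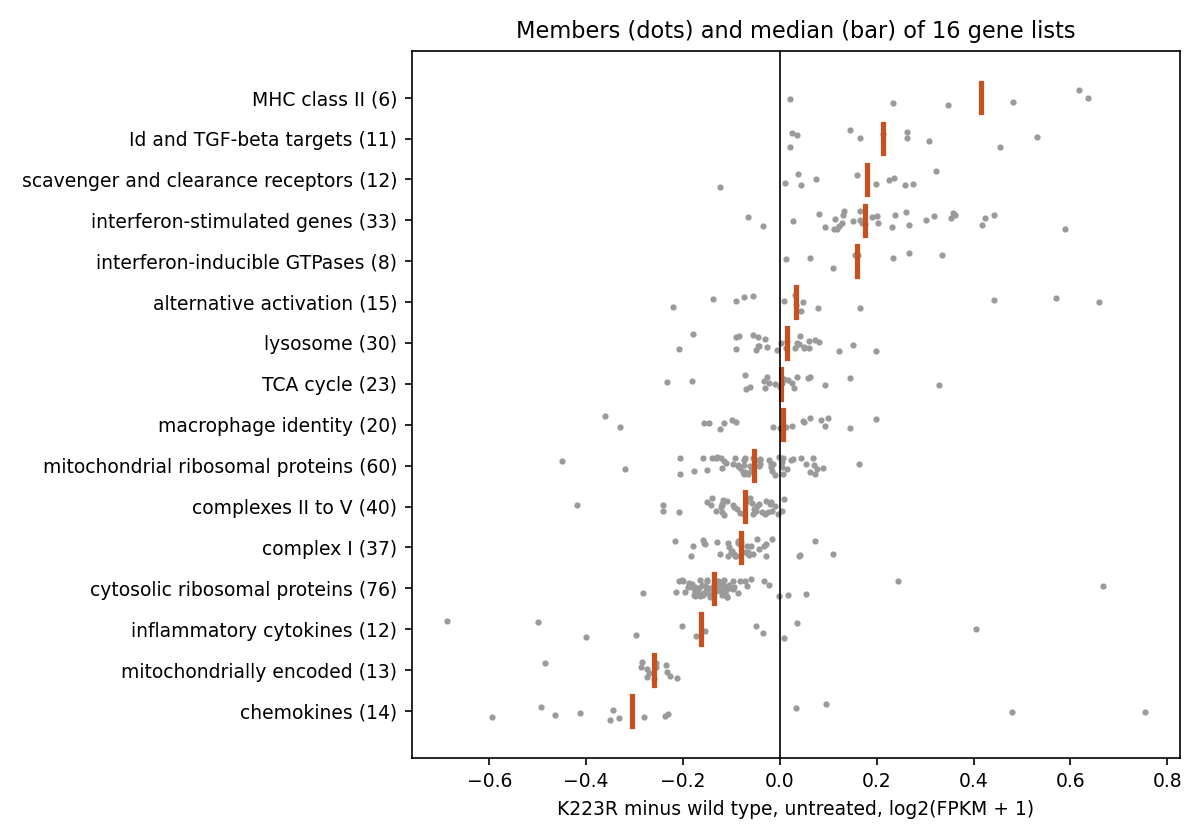
Untreated genotype difference (log2(FPKM + 1) scale) of each tested member of 16 gene lists, one dot per gene, with the median as a bar and the number of tested members in parentheses. Medians run from -0.31 for chemokines to 0.41 for MHC class II, and 0 of the genes shown were called.

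Other metabolic and cellular lists had medians near 0. The 30 glycolysis and hypoxia genes had a median of 0.03, the 30 lysosome genes 0.01, the 27 genes of cholesterol synthesis and its regulators 0.07, with 21 higher, and the 33 cell cycle genes -0.06, with 22 lower. Pfkfb4, an enzyme that sets the pace of glycolysis, stood at 5.86, 4.61, 5.91 and 6.18 FPKM in wild-type and 11.3, 10.2, 6.18 and 9.71 in Sirt3 K223R libraries; wild-type replicate 4 and mutant replicate 3 were equal to 3 digits (difference 0.62, adjusted p = 0.445). Plin2, a coat protein of lipid droplets, differed by 0.21 (adjusted p = 0.451), and Psap, the precursor of lysosomal saposins, by 0.15 (adjusted p = 0.451), or by 0.04 after quantile normalization.

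Markers of other cell types that a bone marrow culture could hold passed the filter on low values only in part. Of 11 osteoclast markers 8 passed (median difference 0.01), of 12 dendritic cell markers 3 (0.03), of 10 monocyte markers 2 (0.18) and of 8 eosinophil markers 2 (0.14). The 2 monocyte markers lay in opposite directions (-0.07 and 0.44), as did the 2 eosinophil markers (-0.02 and 0.30). Among 8 megakaryocyte and platelet markers 2 passed, both with higher means (median 0.36) and 0 called. In bulk libraries, fewer cells of a type and less RNA per cell cannot be told apart. Of 12 stromal markers 3 passed, all at low levels and with higher values without overlap, against 2.38% of all genes wholly higher. Sparc was at 1 FPKM or more in all 4 Sirt3 K223R libraries and in 1 wild-type library. It thus passed mainly through the group where it was high. Acta2 and Tagln, contractile proteins of smooth muscle and myofibroblasts, stood at 2.19, 2.17, 3.21 and 2.75 and at 1.23, 1.16, 1.3 and 0.893 FPKM in wild-type libraries, and at 3.35, 4.1, 3.83 and 4.12 and at 1.35, 1.6, 2.19 and 1.88 in Sirt3 K223R libraries. Sparc, a matrix protein, stood at 0.956, 0.981, 1.06 and 0.577 FPKM in wild-type and 1.51, 1.38, 1.36 and 1.59 in mutant libraries. The differences were 0.44, 0.36 and 0.38 (adjusted p = 0.367, 0.451 and 0.375). The summed level of all 5 listed stromal markers, tested or not, was 4.45 to 6.00 FPKM in wild-type and 6.66 to 8.25 in Sirt3 K223R libraries. The part of such cells in the TGF-beta genes was not tested. The summed level of 8 neutrophil markers was 125 to 208 FPKM in wild-type and 152 to 194 in mutant libraries, with a median difference of 0.11 that was -0.03 without wild-type replicate 1. The 2 tested B cell markers summed to 39.9 to 43.0 FPKM in wild-type and 42.7 to 46.0 in mutant libraries, and they lay in opposite directions. Cd79b, a chain of the B cell receptor, stood at 1.38, 2.07, 1.39 and 1.75 FPKM in wild-type and 0.769, 1.36, 0.882 and 1.22 in mutant libraries (difference -0.36, adjusted p = 0.451), wholly lower. Blnk, an adaptor of B cell receptor signalling that macrophages also express and that holds most of the sum, stood at 38.6, 39.2, 41.6 and 41.2 FPKM in wild-type and 41.9, 43.1, 43.1 and 44.8 in mutant libraries (difference 0.11, adjusted p = 0.512), wholly higher. The 1 tested T and NK cell marker was Cd4, which macrophages can also express. It stood at 2.89, 2.43, 2.61 and 2.59 FPKM in wild-type and 3.03, 4.02, 3.36 and 4.23 in mutant libraries (difference 0.35, adjusted p = 0.434). No mast cell or erythroid marker passed the filter.

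Genes near Sirt3 on chromosome 7 were counted as a group set by position. Within 5 Mb of its start 72 genes were tested; 0 were called (limma), 10 (13.9%) had an unadjusted p under 0.05 against 9.06% of all genes, and in 3 the libraries did not overlap, against 5.06% of all genes. The smallest adjusted p was 0.434, for Cttn, an actin-binding protein at 2.09, 1.22, 1.89 and 1.88 FPKM in wild-type and 2.55, 2.37, 2.98 and 3.1 in Sirt3 K223R libraries (difference 0.44). Its groups did not overlap, and with IL-4 the difference was 1.13 (adjusted p = 3.12e-05).

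The untreated differences were set beside those with IL-4, which share no library with them. The sets are still not shown to be independent, since same-numbered wild-type libraries of both treatments deviated together, with correlations of 0.09 to 0.31. In the fit on all 16 libraries, 1428 of the same 9676 genes were called with IL-4 (14.8%), 451 higher (4.66%) and 977 lower (10.1%) in Sirt3 K223R cells, or 765 and 606 after median-ratio scaling. In that fit 0 genes were called in untreated cells (limma), where 718 (7.42%) had an unadjusted p under 0.05. The genes called with IL-4 had a median absolute difference of 0.31 there and of 0.07 in untreated cells, against 0.12 and 0.06 over all genes tested. They were picked by their difference with IL-4, which by itself raises the value there. Of these 1428 genes, 1002 (70.2%) had the same sign untreated, given as a description only, with no share over all genes to set beside it. In the fit on the 8 untreated libraries, 241 of the 1428 (16.9%) had an unadjusted p under 0.05, against 9.06% of all genes. Of the 241, 209 had the same sign. The difference of the genotype differences was called for 186 genes (1.92%), 59 positive (0.61%) and 127 negative (1.31%, or 109 and 86 after median-ratio scaling), of which 179 were among the 1428. For Axl the genotype difference was 0.26 untreated and -0.56 with IL-4 (interaction -0.81, adjusted p = 0.00697), and for Ccl4 it was -0.49 and -1.46 (interaction -0.97, adjusted p = 0.0247).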

How the data were processed

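RNA was sequenced from 16 macrophage libraries in 4 groups of 4, with groups and replicate numbers taken from the labels. Per the labels' protocols, libraries were stranded (dUTP) and read from both ends, after poly(A) selection or alternatively removal of ribosomal RNA; the sources used here name no aligner, counting tool or strand setting. The values per gene that the authors deposited are taken as FPKM: the headers name no unit, and whether they are TPM over a larger set of genes was not settled. No counts are given, so depth is unknown and the spread between libraries is the measure of precision. A blank line, 1 per file, was dropped. Coordinates in the files equal GENCODE M21 on GRCm38, from which the Sirt3 coding sequence was read. The highest share of tested genes with equal values in a pair of the 8 untreated libraries was 0.0207%, so none was merged.

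Values were set on log2(FPKM + 1), a pseudocount of 1 that understates changes of low genes; all differences are Sirt3 K223R minus wild type on this scale. Genes with FPKM of at least 1 in at least 4 of the 8 untreated libraries were tested with limma 3.58.1 (R 4.3.3), with a mean-variance trend, Benjamini-Hochberg adjustment over all 9676 genes and calls at an adjusted p under 0.05. The main fit used the 8 untreated libraries without a replicate block; the IL-4 difference and the interaction came from a fit on all 16. Single values were compared by 2-sided exact permutation tests in Python 3.11.15 with scipy 1.17.1. The code was tested on simulated data. Gene lists were described by counts and medians, with no set test.

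The members, lists and tests were chosen with earlier results of these data known. Genes were named by a rule: Sirt3; called genes; the highest 2 members by mean of a list without calls; and genes of mean at least 5 with the largest spread among Sirt3 K223R libraries. Others, among them the genes described as ranked after Ctdsp2 and most list members, were chosen after their values were seen. Alternatives covered pseudocount, filter, scaling, robust moderation, array weights, replicate block, all 16 libraries and leaving out each library.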

Additional observations from a re-analysis of the deposited data

Results flagged for a closer look

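For 68 genes and 2 shares of the summed FPKM, each group of 4 untreated libraries was looked at more closely where the gap of its highest or lowest library to the next, divided by the whole range, passed Dixon's 95% critical value for 4 values. This held for 12 of 140 groups (8.57%). Chance flags about 1 in 20 groups, but many of these genes were chosen for their spread or after their values were seen, so the number is a description only. The ratio was 0.994 for Gm45717 in wild-type libraries (replicate 4 high) and 0.966 for C5ar1 in wild-type libraries, where replicate 4 stood at 189.9 FPKM and the others at 24.2 to 29.9. It was 0.961 for Cdc42se1 in wild-type libraries (replicate 3 high), 0.936 for Gpx1 (wild-type replicate 2 high) and 0.917 for mt-Nd1 (wild-type replicate 3 low). Among Sirt3 K223R libraries it was 0.977 for Csf1r (replicate 2 low), 0.885 for Il1b (replicate 2 high), 0.862 for Ear2 (replicate 3 high), 0.995 for Ino80d (replicate 3 high), 0.92 for Zfp180 (replicate 1 high), 0.852 for Ctsd and 0.83 for Ndufa6. The Ctsd values were 6132, 6199, 5421 and 6084 FPKM, and those of Ndufa6 were 143, 129.9, 128 and 130.4.

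For 7 of these genes the genotype difference with IL-4 differed from the untreated one, by the interaction in limma at an adjusted p under 0.05, against 1.92% of all genes tested; many of the genes were chosen after their values were seen. For Axl the differences were 0.26 untreated and -0.56 with IL-4 (adjusted p = 0.00697). For Sparc they were 0.38 and -0.14 (adjusted p = 0.0213), although it passed the filter mainly through the untreated Sirt3 K223R libraries and lay below 1 FPKM in every IL-4 library. For Oas3 they were 0.36 and -0.37 (adjusted p = 0.0313). These 3 genes were higher on average in untreated and lower in IL-4-treated Sirt3 K223R cells. For Ccl4 the differences were -0.49 and -1.46 (adjusted p = 0.0247), for Ear2 0.66 and 2.23 (adjusted p = 0.0296), and for Cttn 0.44 and 1.13 (adjusted p = 0.0313), larger with IL-4 in the same direction. For Herpud1 they were -0.36 and 0.46 (adjusted p = 0.0372), opposite in sign. None of these 7 genes was called in untreated cells.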

How the results depend on the processing

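The untreated count of 1 called gene was the same with pseudocounts of 0.1 and 5, other filters, both scalings, robust moderation and array weights. It was 0 with a replicate block and 0 in the fit on all 16 libraries, and 2 to 8 when 1 library was left out; 21 genes were called in at least 1 of those 8 fits, and Ctdsp2 alone in more than 1. Ctdsp2 was not called with the block (adjusted p = 0.0612) or on 16 libraries (adjusted p = 0.296); in this balanced design neither can alter its difference of 1.80. Of other genes named, those called with 1 library left out were Jade1 (-0.87, without Sirt3 K223R replicate 4), Ino80d (-1.61, without replicate 3), Zfp180 (-1.82, without replicate 1) and, without wild-type replicate 3, Mrpl30 (-0.55) and Cdc42se1 (1.24). For Ino80d, Zfp180 and Cdc42se1 the library left out was the 1 against the split by genotype, so those calls were set by how the genes were chosen. The count of called list genes, 0, was 0 to 1 with 1 library left out. The numbers of untreated replicates did not pair wild-type with Sirt3 K223R libraries: deviations of same-numbered libraries correlated at -0.19 to -0.02. Between untreated and IL-4 libraries they correlated at 0.09 to 0.31 in wild-type and -0.04 to 0.11 in Sirt3 K223R cells. The block used the replicate number alone, so same-numbered libraries of both genotypes shared it. A block joining untreated and IL-4 libraries within a genotype was not fitted. With the replicate number as a block the interaction count was 159 (186 without) and the IL-4 count 1414 (1428 without). With 1 library left out these were 82 to 302 and 1145 to 1507. Under median-ratio scaling the IL-4 split of 451 higher and 977 lower became 765 and 606, and under quantile normalization 640 and 634; the interaction split of 59 positive and 127 negative became 109 and 86, and 74 and 78. These scalings moved the median over all genes by 0.05 with IL-4 and by 0.0011 or less untreated. The direction of Sirt3 reversed without wild-type replicate 1 (-0.00040 to 0.074 with 1 library left out), that of Gm45717 with array weights (-0.34), that of Tlr4 in 4 of the 8 fits with 1 library left out (-0.31 to 0.72 over the 8), and that of the share of the 10 highest genes in 3 of 8 such comparisons (-0.188 to 0.475 percentage points over the 8). Chosen after the data were seen, pseudocounts of 0.1 and 5 changed the numbers of genes with a log2 SD above 0.5 from 231 wild-type and 204 Sirt3 K223R to 410 and 328, and to 75 and 64; with these pseudocounts 70 and 14 genes had 2 levels within a group, against 36, and Ctdsp2 was no longer among them at 5. List medians within about 0.1 of 0 changed sign in some fits, as that of the cell cycle genes at a mean of at least 5 (0.02). The cause of these changes was not tested. Unknown depth limits what can be said of genes under the filter.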
